A study of Mus musculus with 3 samples.

Results

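The 10 genes described here mark the contractile mural cells of blood vessels, that is, pericytes and vascular smooth muscle cells: Rgs5, Notch3, Acta2, Tagln, Cnn1, Mylk, Myh11, Actg2, Pdgfrb and Mcam. They were chosen by name from the 31053 genes in the raw matrices and followed in 3 whole tumors of TH-MYCN mice, which develop neuroblastoma because the promoter of tyrosine hydroxylase (TH) drives human MYCN in cells of the sympathetic lineage. All mice were heterozygous for the transgene, 1 tumor was taken per mouse, and mice were 62, 79 and 63 days old for tumors 1, 2 and 3. All 3 tumors form 1 group with no control group, so that each comparison lies between classes of cells within the same tumors. The strain and sex of the mice are not given in the sources used here.

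Pericytes sit on the outer wall of capillaries and smooth muscle cells wrap larger vessels, and both contract by sliding actin on smooth muscle myosin. Endothelial cells recruit them by releasing PDGF-B, which binds the receptor encoded by Pdgfrb, and instruct them through Notch ligands, which bind Notch3. Acta2 is also a marker of activated fibroblasts, and cells with Acta2 in tumors are therefore often grouped with cancer-associated fibroblasts (CAFs).

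Droplet capture gave 3257, 4327 and 6038 barcodes with 17319241, 21829496 and 20041044 unique molecular identifiers (UMIs, 1 per captured RNA molecule) for tumors 1, 2 and 3. The authors kept 1914, 1221 and 2515 of these barcodes, with medians of 4282.5, 1594 and 1816 UMIs, and the results below rest on the raw UMIs of these cells. Kept cells of different tumors shared 4 barcodes in all. Clusters were made without the 10 genes and without Dcn, and were named from other markers. A single cluster of 83 stromal-like cells, 46, 8 and 29 in tumors 1, 2 and 3, carried 12 of 12 fibroblast markers and 11 of 12 perivascular markers, so that both kinds of cell lay in it. It was 1.47% of kept cells and 5.44% of their UMIs. The 94 endothelial-like cells, 43, 19 and 32 by tumor, carried 12 of 12 endothelial markers, and 27 mesothelial-like cells carried 8 mesothelial and 12 fibroblast markers. Levels are UMIs of a gene per 1000000 UMIs (CPM) of the summed cells of a class in a tumor. Since capture at the 3' end differs between transcripts, levels were compared between classes and not between genes.

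Many smooth muscle genes are switched on by serum response factor, which binds the CArG box (CC, then 6 bases of A or T, then GG). The 250 bases before the RefSeq start on GRCm38.p6 were searched in 6 of the 10 genes (Rgs5, Notch3, Acta2, Cnn1, Mylk and Mcam). Promoters of Tagln, Myh11, Actg2 and Pdgfrb were not searched, so that the counts below hold for the 6 searched genes only. The box reads alike on both strands, and it was in 482 of 32851 mouse promoters of that length (1.47%) and in 0 of the 6. With 1 other base allowed in its middle it was in 2823 promoters (8.59%), and among the 6 it was found before Acta2 alone, where 2 matches began 84 and 34 bases before the start. The Acta2 stretches are shown because this gene carried the largest count of UMIs among the 10, and the Rgs5 promoter because its UMIs chose the cells compared below. Capitals mark the CArG-like element. Both Acta2 stretches, on the minus strand at chr19:34255438-34255467 and chr19:34255388-34255417, lie in what GENCODE M21 also annotates as an untranslated first exon. The Rgs5 stretch is on the plus strand at chr1:169655251-169655500 and held no match to either form.
Acta2, distal element: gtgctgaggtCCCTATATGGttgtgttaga
Acta2, proximal element: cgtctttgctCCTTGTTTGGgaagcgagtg
Rgs5, promoter: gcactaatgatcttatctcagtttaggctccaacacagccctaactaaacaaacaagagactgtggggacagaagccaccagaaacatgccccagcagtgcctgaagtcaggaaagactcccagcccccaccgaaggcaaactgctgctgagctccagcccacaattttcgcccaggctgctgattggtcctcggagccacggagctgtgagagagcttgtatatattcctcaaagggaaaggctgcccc

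For 9 of the 10 genes the stromal-like class had the highest mean level, and Mcam had its highest mean in endothelial-like cells. Stromal-like cells held 90.1% of the 2468 Rgs5 UMIs found in kept cells, 85.3% of the 4610 Acta2 UMIs, 86.8% of the 2557 Tagln UMIs and 92.2% each of the 463 Myh11 and 425 Actg2 UMIs. The share was lower for Mylk (76.1% of 568 UMIs), Notch3 (66.3% of 427) and Mcam (46.0% of 752).

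**Figure D1:**
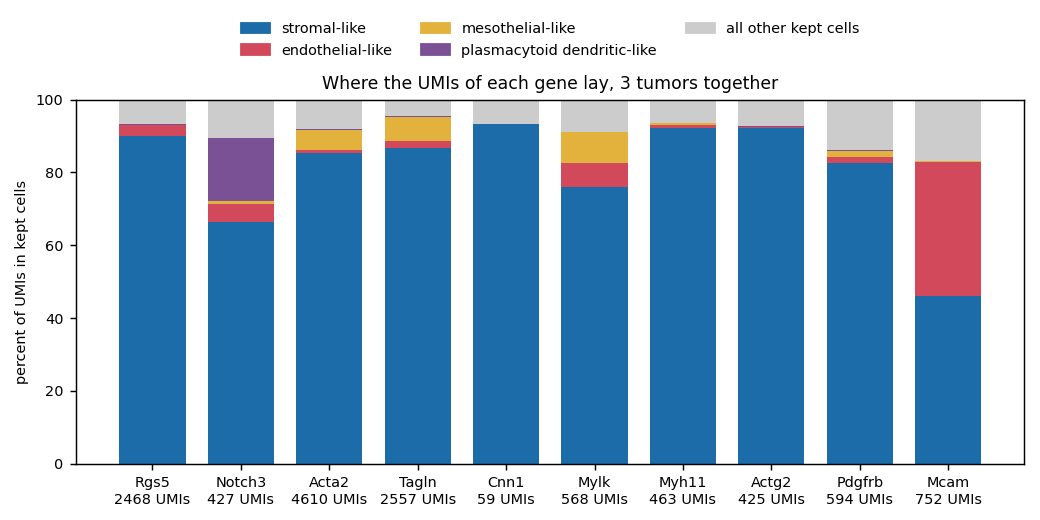
Share of each gene's UMIs by cell class, all kept cells of the 3 tumors together. Bars give percent of the UMIs printed under each gene. The stromal-like class holds most UMIs of each gene except Mcam, of which 36.8% were in endothelial-like cells, and 17.3% of Notch3 UMIs were in plasmacytoid dendritic-like cells.

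Among the receptors and signalling genes, Rgs5 (chr1:169655501-169695813, plus strand) encodes a regulator that shortens signals of G protein-coupled receptors and is a classical pericyte marker. Its level in stromal-like cells was 1760.3, 1870.5 and 3768 CPM in tumors 1, 2 and 3 (mean 2466 ± 1129, SD, n = 3). In endothelial-like cells it was 81.4, 359 and 0. The classes did not overlap, and the endothelial-like values spread widely. Notch3 (chr17:32120820-32166852, minus strand), the mural Notch receptor, was at 249.7, 208 and 295 CPM in stromal-like cells against 35.2, 59.8 and 0 in endothelial-like cells. Pdgfrb (chr18:61045150-61085061, plus strand), the receptor for PDGF-B, was at 449, 302 and 409.5 against 22.0, 0 and 0. For both receptors the lowest stromal-like tumor lay above the highest endothelial-like tumor.

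The contractile genes had the same order. Acta2 (chr19:34241090-34255590, minus strand) encodes smooth muscle alpha actin and stood at 3553, 2645 and 3555 CPM in stromal-like cells of tumors 1, 2 and 3 (mean 3251 ± 525, SD, n = 3), against 61.6, 59.8 and 8.29 in endothelial-like cells. Tagln (chr9:45929619-45936058, minus strand), the actin-binding transgelin, stood at 1974, 1436 and 2277 against 83.6, 49.8 and 8.29. The stromal-like level of both genes was lowest in tumor 2, and still above every endothelial-like tumor. Mylk (chr16:34745210-35002420, plus strand), the kinase that starts contraction by phosphorylating myosin light chain, stood at 346, 623 and 589.7 against 52.8, 49.8 and 66.3. Myh11 (chr16:14194535-14291372, minus strand), smooth muscle myosin heavy chain, stood at 367, 756 and 328 against 6.60, 9.97 and 0. Actg2 (chr6:83512905-83536265, minus strand), the gamma actin of visceral smooth muscle, stood at 370.2, 151 and 278 against 0, 9.97 and 0. None of these genes had overlapping classes. The share of all genes without such overlap is not given here, so that this is a description.

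Cnn1 (chr9:22099216-22109630, plus strand) encodes calponin, a marker of mature smooth muscle, and was the sparsest of the 10. It was at 55.0, 37.8 and 8.19 CPM in stromal-like cells, and these levels rest on 52, 2 and 1 UMIs. No endothelial-like or mesothelial-like cell had a Cnn1 UMI, and outside the stromal-like class only 4 UMIs were found, 2 in macrophage-like and 2 in tumor-like cells.

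Mcam (chr9:44134469-44142727, plus strand), the adhesion molecule CD146, differed from the other 9 genes. It was at 303, 208 and 401 CPM in stromal-like cells and at 473, 159 and 381 in endothelial-like cells, so that the classes overlapped.

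**Figure D2:**
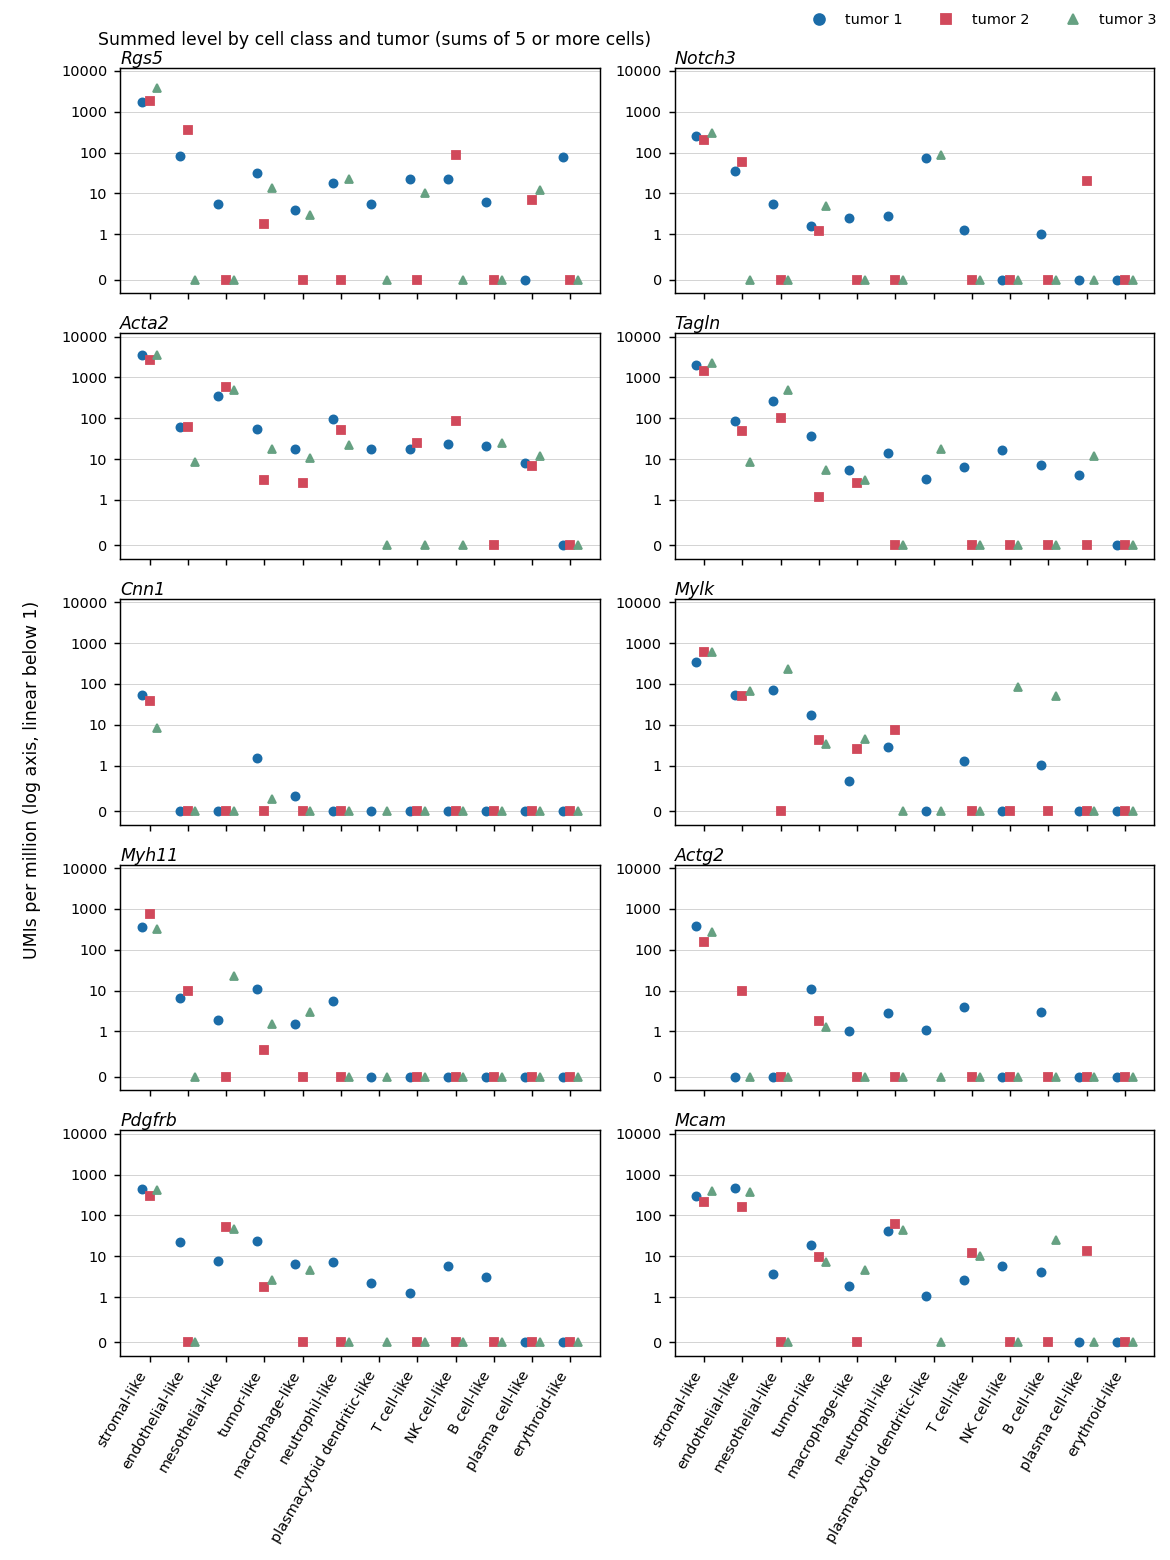
Level of each gene in each class, 1 point per tumor, for sums of 5 or more cells (y axis, CPM, log scale that is linear below 1). The stromal-like points stand highest for 9 genes, whereas for Mcam the stromal-like points (208 to 401) and the endothelial-like points (159 to 473) overlap.

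Sums per tumor and class were compared with edgeR's quasi-likelihood test, with p values adjusted by the Benjamini-Hochberg method over all 5840 genes tested and a fold change with its standard error (SE). All 9 genes that passed the filter on low counts were higher in stromal-like cells than in the mean of the other classes, endothelial-like cells left out, where 15.8% of all genes tested were called higher and 0.582% lower. The filter takes counts from any class, so that a gene seen almost only in stromal-like cells passed through them, and the count is a description. The log2 fold change was 7.98 for Rgs5 (SE 0.52, edgeR adjusted p = 5.5e-13), 7.54 for Acta2 (SE 0.47, adjusted p = 5.5e-13) and 6.24 for Mcam (SE 0.39, adjusted p = 5.5e-13). The other 6 lay between 6.76 for Notch3 and 9.45 for Myh11. These folds set a class against others in which a gene was often at 0, so that they depend on the small count added by the fit. As ratios of pooled levels, stromal-like cells stood 217 times above the rest for Rgs5, 103 times for Acta2, 127 times for Tagln, 224 times for Myh11 and 38.9 times for Notch3. Cnn1 did not pass the filter, and its pooled ratio of 231 rests on 4 UMIs in the rest. Without the filter it was also called higher (log2 fold change 7.02, adjusted p = 6.2e-17).

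Set directly against endothelial-like cells, 8 of 9 genes tested were higher in stromal-like cells, where 3.8% of all genes were called higher and 2.45% lower. Notch3, Myh11, Actg2 and Pdgfrb passed the filter only with the stromal-like sums, where they were high, so that their calls are a description. In endothelial-like cells Myh11 had 4 UMIs and Actg2 had 1. The largest folds were those of the contractile genes Actg2 (log2 fold change 7.34, SE 1.14, adjusted p = 0.0002), Myh11 (6.47, SE 1.01, adjusted p = 0.00031), Acta2 (6.34, SE 0.98, adjusted p = 0.0001) and Tagln (5.36, SE 0.95, adjusted p = 0.00041), followed by Pdgfrb (5.19, SE 0.94, adjusted p = 0.00059). Rgs5 (4.27, SE 1.003, adjusted p = 0.0052), Mylk (3.37, SE 0.82, adjusted p = 0.0085) and Notch3 (3.16, SE 0.80, adjusted p = 0.011) had smaller folds. These last 3 genes were no longer called with DESeq2 or without tumor 3, which leaves 5 of 8, nor was Notch3 without tumor 1 (adjusted p = 0.093) or Mylk without tumor 2 (adjusted p = 0.19) or with the authors' corrected counts (adjusted p = 0.052). Mcam was not called (0.03, SE 0.53, adjusted p = 1), and its pooled stromal-like level was 0.753 times the endothelial-like one.

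Endothelial-like cells carried some of these genes above the remaining classes, stromal-like cells left out. Mcam (log2 fold change 6.21, SE 0.39, adjusted p = 2.1e-13), Mylk (4.47, SE 0.77, adjusted p = 6.5e-05), Rgs5 (3.71, SE 0.64, adjusted p = 3.3e-05), Notch3 (3.60, SE 0.78, adjusted p = 0.0011) and Tagln (2.62, SE 0.75, adjusted p = 0.014) were higher, 5 of 9 tested, where 13.6% of all genes were called higher and 0.411% lower. Acta2 (1.20, adjusted p = 0.53), Myh11 (2.98, adjusted p = 0.14), Pdgfrb (2.03, adjusted p = 0.26) and Actg2 (0.88, adjusted p = 0.85) were not called, and the last 3 took the opposite sign in some alternatives. Rgs5 and Tagln were not called without tumor 2, and Notch3 and Tagln were not called without tumor 1 or with DESeq2, which leaves 3 of 5 each time.

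The genes differed in how their UMIs were spread over endothelial-like cells. Mylk was found in 22 of the 94 cells, Acta2 and Tagln in 13 each and Rgs5 in 9, whereas Notch3 and Myh11 were found in 2 and Pdgfrb and Actg2 in 1. Of the 94 cells, 58 had no UMI of the 9 genes other than Mcam, 21 had 1 of those genes, 12 had 2, 1 had 4 and 2 had 7. The 3 cells with 3 or more of the genes, 2 in tumor 1 and 1 in tumor 2, held 66 of 73 Rgs5 UMIs, all 22 Notch3, all 10 Pdgfrb and all 4 Myh11 UMIs, but 23 of 35 Acta2, 24 of 44 Tagln and 9 of 37 Mylk UMIs. They carried a median of 28978 UMIs against 3803 in the other 91, and a median of 10 of 12 endothelial markers against 9. In the other 91 cells Rgs5 was at 11.9 CPM (7 UMIs), Tagln at 33.9 (20 UMIs), Mylk at 47.4 (28 UMIs in 19 cells) and Mcam at 409.8 (242 UMIs in 52 cells), and Notch3, Pdgfrb, Myh11, Actg2 and Cnn1 were at 0. Over all 94 cells the perivascular markers summed to 300.5 CPM, with 2 of 12 at 0, against 961 in stromal-like cells, and the endothelial markers to 9187 against 221. The 3 cells were picked by their UMIs of the genes themselves, so that this is a description with no test. Whether such droplets held more than 1 cell was not tested.

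**Figure D3:**
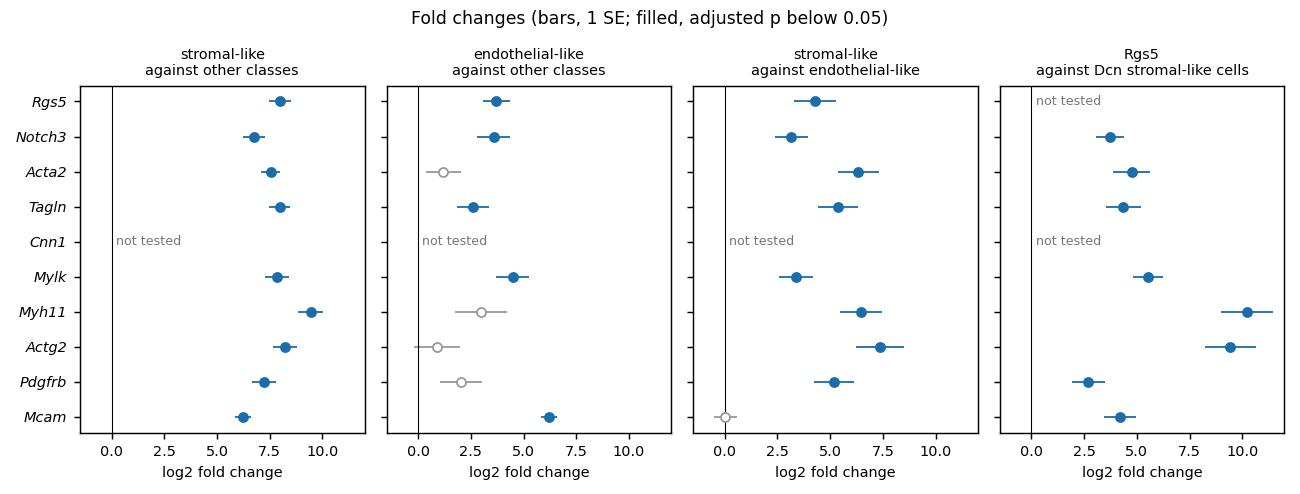
Log2 fold change of each gene in the 4 comparisons, with bars of 1 SE. Filled points have an adjusted p below 0.05 and open points do not, and genes left out by the filter on low counts are marked as not tested. Mcam lies at 0.03 between stromal-like and endothelial-like cells, whereas the other 8 genes tested there lie between 3.16 and 7.34.

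To count the cells in which each gene was found, all cells were thinned to 500 UMIs, since depth differed between classes (medians of 8914 UMIs in stromal-like and 3848 in endothelial-like cells). Rgs5 UMIs were in 42.2% of stromal-like cells (95% exact binomial interval 31.4 to 53.5, 49.4% unthinned) and in 4.26% of endothelial-like cells (9.57% unthinned). In macrophage-like cells, which should lack the gene, the share was 0.227% (2.83% unthinned, median depth 6535.5 UMIs). Acta2 was in 38.6%, 4.26% and 1.25% of the 3 classes after thinning and in 63.9%, 13.8% and 11.5% before it. Mcam was in 14.5% of stromal-like and 18.1% of endothelial-like cells (unthinned 54.2% and 58.5%), against 0.227% of macrophage-like cells. The intervals cover counting error only.

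Outside vessels and stroma, 3 classes carried single members. Mesothelial-like cells, which line body cavities, had Acta2 at 358, 577 and 489 CPM, Tagln at 268, 103 and 489, and Mylk at 73.2, 0 and 233 in tumors 1, 2 and 3. All of these lay below the stromal-like tumors, and pooled stromal-like levels were 8.93 times those of mesothelial-like cells for Acta2, 7.53 times for Tagln and 5.15 times for Mylk. Rgs5 had 3 UMIs there, and Cnn1 and Actg2 had none (stromal-like levels at least 10.7 and 76.3 times higher against a limit of 3 UMIs over the class). Plasmacytoid dendritic-like cells, which make type I interferon, had Notch3 at 75.4 CPM in tumor 1 and 88.1 in tumor 3, and at 0 in the 4 cells of tumor 2. The 74 Notch3 UMIs lay in 48 of 118 cells with at most 5 in a cell, and thinning left a UMI in 8.47% of cells (4.14 to 15.03), against 40.7% before it. Rgs5 had 5 UMIs in that class, Acta2 16, and Mylk, Myh11 and Cnn1 none. Neutrophil-like cells had Mcam at 42.4, 59.997 and 44.8 CPM, 40 UMIs in 36 cells, and Acta2 at 96.2, 52.5 and 22.4.

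The stromal-like cells were split by Rgs5 and by Dcn, which encodes the matrix proteoglycan decorin of fibroblasts. Among the 83 cells, 30 had Rgs5 and no Dcn UMIs (15, 2 and 13 by tumor), 29 had Dcn and no Rgs5 UMIs (23, 3 and 3), 11 had both and 13 had neither. The last 13 cells had a median of 1717 UMIs against 8820.5, 16161 and 7353 in the Rgs5, Dcn and double-positive cells. Schwann cell markers summed to 1928, 0 and 413 CPM in these 13 cells (2, 1 and 10 by tumor). In Rgs5 cells these markers reached at most 33.8 CPM and in Dcn cells 7.32. Tumor cell markers summed to 58.4, 1421 and 1412 CPM in the 13 cells, against 3317 in the tumor-like class. The same markers summed to 64.2, 464 and 1150 in Rgs5 cells and to 31.1, 312 and 830 in Dcn cells. Whether some of the 13 were Schwann cells or held tumor cell RNA was not tested. Dcn sums held 546442, 28842 and 15655 UMIs in tumors 1, 2 and 3, so that those of tumors 2 and 3 are shallow.

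Acta2 was at 7557, 10019 and 4145 CPM in Rgs5 cells of tumors 1, 2 and 3 and at 225, 0 and 575 in Dcn cells. Myh11 was at 1151, 3339.8 and 541 in Rgs5 cells and Actg2 at 660.3, 649 and 305, and neither gene had a UMI in the 29 Dcn cells, of any tumor. The groups did not overlap for any of the 3 genes, again without the share of all genes beside it. Tagln was at 3444, 4453 and 2808 against 273, 0 and 63.9, Mylk at 913, 2412 and 1032 against 20.1, 34.7 and 0, and Notch3 at 702, 278 and 457 against 53.1, 34.7 and 0. Mcam was at 830.0, 649 and 659.8 against 56.7, 0 and 0. Pdgfrb had the narrowest gap, at 954, 557 and 659.8 against 209, 0 and 63.9, and its pooled ratio was 4.51 against 12.5 for Notch3, 13.2 for Tagln, 15.03 for Mcam, 31.1 for Acta2 and 48.9 for Mylk. With a limit of 3 UMIs over the Dcn cells, the pooled level of Myh11 was at least 218 times higher in Rgs5 cells, that of Actg2 at least 116 times and that of Cnn1 at least 26.0 times.

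**Figure D4:**
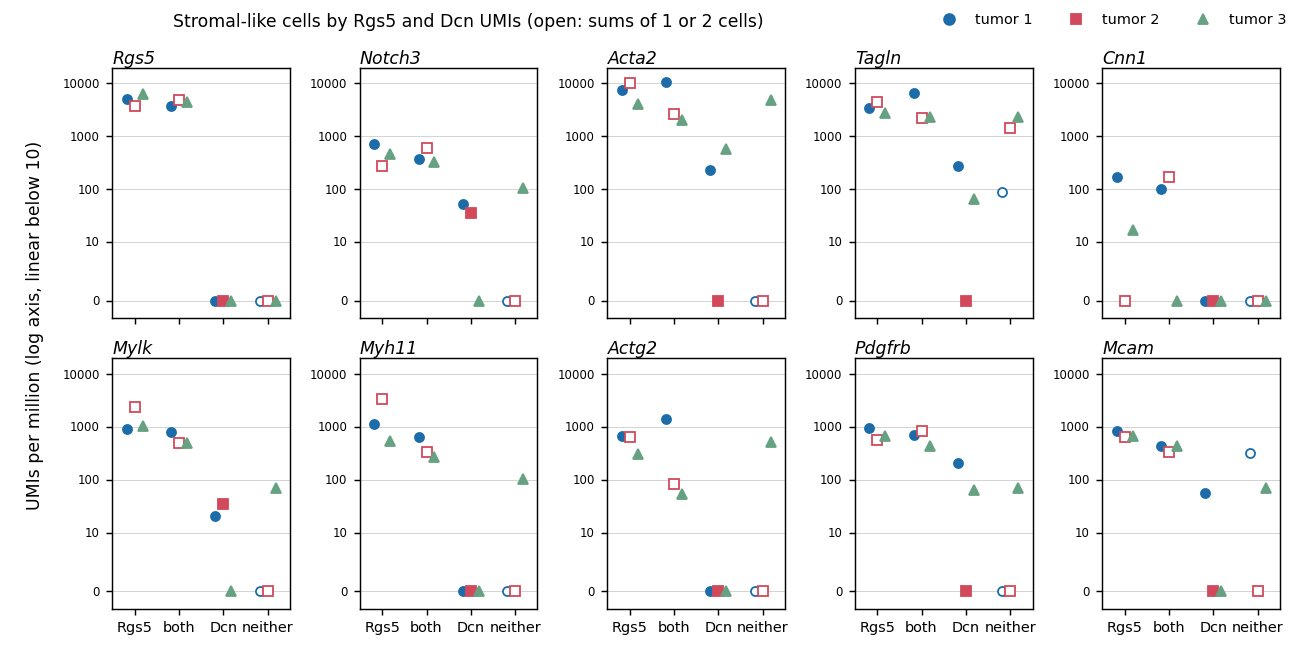
Level of each gene in stromal-like cells split by Rgs5 and Dcn UMIs, 1 point per tumor (y axis, CPM, log scale that is linear below 10; open points, sums of 1 or 2 cells). The Rgs5 points stand above the Dcn points of the same tumor except for Cnn1 in tumor 2, at 0 in both, and Rgs5 itself is at 0 in Dcn cells because it chose them.

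Since tumor 2 had only 2 Rgs5 cells, the test set the Rgs5 sums of tumors 1 and 3 against the Dcn sums of all 3 tumors. Of the 8 genes tested, Myh11 and Actg2 had no UMI in Dcn cells and passed the filter through the Rgs5 sums alone, so that their calls (adjusted p = 0.0026 each) are no evidence. The other 6 were higher in Rgs5 cells, where 5.32% of the 1091 genes were called higher and 7.97% lower. Among the 6, Acta2 alone had levels in the Dcn sums that would pass the filter. Mylk, Mcam, Tagln, Notch3 and Pdgfrb passed it only with the Rgs5 sums, where they were high, so that their calls are a description. Acta2 (log2 fold change 4.75, SE 0.87, adjusted p = 0.0058), Mylk (5.52, SE 0.72, adjusted p = 0.0026), Mcam (4.19, SE 0.76, adjusted p = 0.0057), Tagln (4.36, SE 0.84, adjusted p = 0.0069) and Notch3 (3.74, SE 0.67, adjusted p = 0.0057) were 5 of the 6. Pdgfrb was nearest the threshold (2.71, SE 0.80, adjusted p = 0.0497) and was not called without the filter, without tumor 1 or without tumor 2. Without tumor 1, which leaves 1 Rgs5 sum that is assumed to vary like the Dcn sums, Acta2, Tagln, Mylk and Mcam were still called and Notch3 was not (adjusted p = 0.63).

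Markers of other cells moved with this split. Endothelial markers summed to 601, 649 and 305 CPM in Rgs5 cells, with 6, 10 and 8 of the 12 at 0, against 73.2, 34.7 and 0 in Dcn cells. The 12 include Esam, whose own level in Rgs5 cells is given below. Macrophage markers summed to 1518, 186 and 33.8 in Rgs5 cells of tumors 1, 2 and 3 against 575, 34.7 and 128 in Dcn cells. The perivascular markers, which do not include the 10 genes, summed to 2609, 2412 and 1878 in Rgs5 cells against 239.7, 173 and 128 in Dcn cells, whereas fibroblast markers summed to 23859, 17534 and 10692 against 49817, 31031 and 47589. The part of endothelial, macrophage or tumor cell RNA in the differences was not tested.

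Counted cell by cell, 28 of 30 Rgs5 cells had an Acta2 UMI, 27 Tagln, 27 Mcam, 26 Mylk, 25 Myh11, 25 Pdgfrb, 24 Notch3, 16 Actg2 and 8 Cnn1. At least 5 of the 9 genes besides Rgs5 were found in 25 of 30 Rgs5 cells, 10 of 11 double-positive cells, 4 of 29 Dcn cells and 1 of 13 cells with neither. In the double-positive cells of tumors 1, 2 and 3 Rgs5 was at 3685, 4958 and 4538 CPM, Acta2 at 10835, 2689 and 2078, and Dcn at 184, 1345 and 1476. Tumor 1 stood apart with more Acta2 and less Dcn, and these sums rest on 6, 2 and 3 cells. Fibroblast markers summed to 32848, 11429 and 28157 CPM in these cells, between the Rgs5 and the Dcn cells in tumors 1 and 3, and perivascular markers to 1201, 924 and 1804, between both groups in all 3 tumors. Pdgfrb was the member most often found in Dcn cells (18 of 29), followed by Tagln (13) and Acta2 (10), although these cells were the deepest of the cluster. Of the Dcn cells, 5 had Notch3 UMIs and held 117 of the 132 Acta2, 120 of the 150 Tagln, all 31 Mcam and 82 of the 115 Pdgfrb UMIs of the group, with no UMI of Rgs5, Myh11, Actg2 or Cnn1. All of these Acta2, Tagln, Mcam and Pdgfrb UMIs were in the 4 cells of tumor 1. The 1 cell of tumor 2 had 1 Notch3 UMI and none of those genes. The 13 cells with neither gene included 5 cells of tumor 3 with 142 Acta2 UMIs (4891 CPM over that tumor's 10 cells). A single cell held 107 of them and the other 4 held 2 to 14, and without that cell the level was 1648 CPM.

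**Figure D5:**
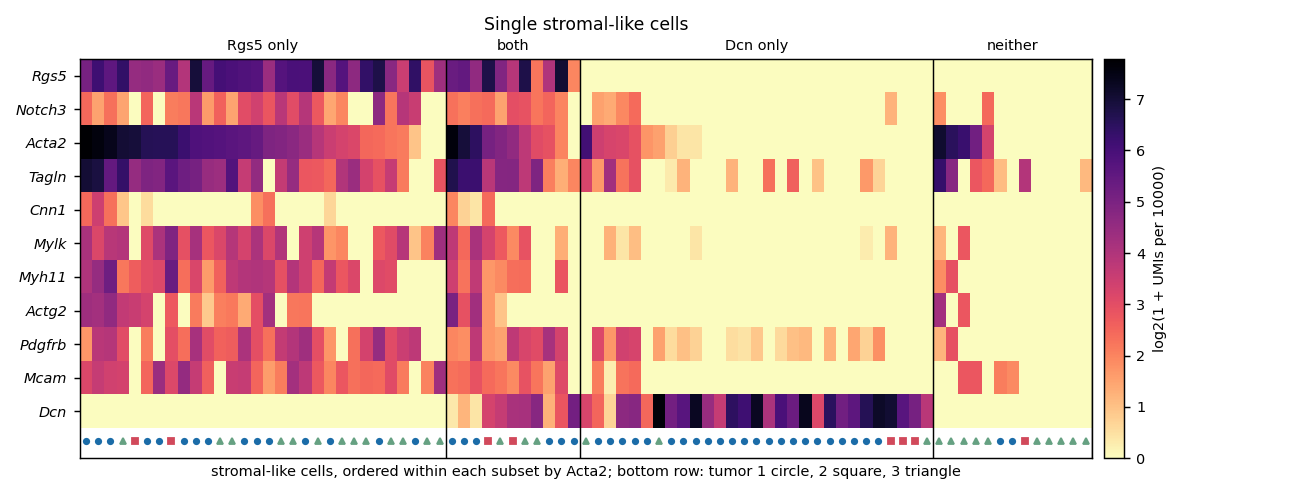
The 83 stromal-like cells, 1 column each, grouped by Rgs5 and Dcn UMIs and ordered by Acta2 within a group. Shade gives log2 of 1 plus UMIs per 10000, and the symbol under a column gives the tumor. Dcn cells are blank for Myh11, Actg2 and Cnn1, whereas 25 of 30 Rgs5 cells have Myh11.

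The 41 cells with Rgs5 UMIs differed among themselves in contractile content. Acta2 ran from 0 to 219.8 UMIs per 10000 in single cells, with a median of 27.9 over all of them and of 55.1, 64.2 and 10.7 in tumors 1, 2 and 3. There were 14 cells with under 10 Acta2 UMIs (4, 0 and 10 by tumor), 17 with 10 to 99 (8, 4 and 5) and 10 with 100 or more (9, 0 and 1), with medians of 3065.5 UMIs in the lowest group and 20451.5 in the highest. Depth and tumor therefore moved with this grouping, which used Acta2 itself, and no test is given. From the lowest to the highest group, Tagln went from 758 to 7045 CPM, Actg2 from 15.8 to 1399 and Cnn1 from 0 to 191, whereas Rgs5 and the receptors went the other way, Rgs5 from 7106 to 3874, Notch3 from 932 to 344 and Pdgfrb from 1058 to 617. Myh11 was at 426 in the lowest, 975 in the middle and 999 in the highest group. Actg2 was found in 9 and Cnn1 in 8 of the 10 highest cells, against 1 and 0 of the 14 lowest.

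Some pairs of genes varied together over single cells. Over the 41 cells, which share libraries and differ in depth, the correlation of log2 levels was 0.79 for Acta2 with Tagln (Spearman 0.83), 0.76 for Acta2 with Actg2 (0.80) and 0.69 for Cnn1 with Actg2 (0.70). Notch3 correlated with Pdgfrb at 0.71 (0.66). Acta2 correlated with Notch3 at 0.14 (0.00) and with Pdgfrb at 0.14 (-0.06). Rgs5 correlated with Acta2 at 0.27 (0.11), with Tagln at 0.14 (0.03), with Myh11 at 0.40 (0.23) and with Pdgfrb at 0.44 (0.40). Its lower level in the highest Acta2 group was thus not matched by a negative correlation with Acta2 over single cells. These are descriptions without a test.

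Genes with a like pattern were sought over the 35 sums of class and tumor, which share libraries, by the correlation of log2 levels. Nearest to Rgs5 were Aoc3 (0.89), Spry1 (0.88), Lama2 (0.85), Lrrc32 (0.85) and Map3k7cl (0.82), and among the 10 genes Actg2 (0.86) and Myh11 (0.83). Nearest to Acta2 were the matrix genes Adamts2 (0.92), Col1a2 (0.92), Col1a1 (0.90), Fbn1 (0.90) and Col5a3 (0.90), with Tagln at 0.91. Nearest to Mcam were Adamts4 (0.86), Sparcl1 (0.84), Hecw2 (0.83), Col15a1 (0.82) and the endothelial receptor Flt1 (0.82), with Rgs5 and Mylk at 0.67 each.

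Further genes of the contractile apparatus were higher in the same cells. In stromal-like cells against the other classes, 20 of the 25 tested from a list of 35 were higher and 0 lower. Their median log2 fold change was 3.44, beside 15.8% of all genes tested called higher (median 0.13). Against endothelial-like cells 8 were higher and 0 lower (median 1.67), beside 3.8% of all genes higher (median 0.00). In Rgs5 against Dcn cells 8 of 20 were higher and 0 lower (median 2.27), beside 5.32% of all genes higher (median 0.01). Genes low in Dcn cells could pass the filter with the Rgs5 sums alone, so that this last count is a description. Myl9, the regulatory light chain phosphorylated by the Mylk kinase, was at means of 424 CPM in stromal-like and 5.87 in endothelial-like cells (log2 fold change 5.58, SE 0.89, adjusted p = 0.00018), and at 1022 in Rgs5 against 23.1 in Dcn cells (6.94, SE 0.98, adjusted p = 0.0026). Des, the intermediate filament desmin, was at 288 in Rgs5 against 6.71 in Dcn cells (4.09, SE 0.75, adjusted p = 0.0058), and the tropomyosin gene Tpm1 at 1859 against 141 (3.93, SE 0.67, adjusted p = 0.0044). In this comparison Myl9 and Des passed the filter only with the Rgs5 sums, so that their calls there are a description. In endothelial-like cells against the other classes 11 were higher and 0 lower (median 1.67), beside 13.6% of all genes higher (median 0.12). Among the 11 was Cnn3, at a log2 fold change of 3.11. Of the serum response factor and myocardin list, only 4 of 12 genes had the counts to be tested. Fhl1 and Tbx2, 2 of the 4, were higher in stromal-like cells than in the other classes, beside 15.8% of all genes.

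Of the ligands for these receptors, Pdgfb and Dll4 were higher in endothelial-like cells. Pdgfb, whose product binds the Pdgfrb receptor, was at means of 182.3 CPM in endothelial-like and 17.5 in stromal-like cells (log2 fold change -3.41, SE 0.87, adjusted p = 0.012), and of the 3 PDGF genes tested 1 was higher in stromal-like cells (Pdgfra) and 1 lower. Dll4, at 149.9 against 2.73 (-6.43, SE 1.39, adjusted p = 0.0033), and the endothelial receptor Notch4, at 179 against 2.82 (-4.61, SE 0.99, adjusted p = 0.0035), were also lower in stromal-like cells, and Heyl, a Notch target gene, was higher in them, at 82.8 against 3.67 (3.93, SE 1.14, adjusted p = 0.04). Of 9 Notch genes tested, these were the 3 calls between the classes (1 higher and 2 lower, median -0.71, all genes 0.00). Between these classes 3.8% of all genes were called higher in stromal-like cells and 2.45% lower. Against the other classes 4 Notch genes were higher in stromal-like cells (median 2.18) and 6 in endothelial-like cells (median 3.76), with 0 lower in either, where 15.8% and 13.6% of all genes were called higher (medians 0.13 and 0.12). Jag1, a Notch ligand, was at 201 CPM in stromal-like and 51.3 in endothelial-like cells and was not called between them (adjusted p = 0.074). Pdgfa was at 466 in Rgs5 against 18.9 in Dcn cells (3.52, SE 0.75, adjusted p = 0.013), while its receptor Pdgfra was at 2.29 against 320 (-6.24, SE 0.91, adjusted p = 0.0026). Pdgfa passed the filter only with the Rgs5 sums and Pdgfra only with the Dcn sums, so that both calls are a description. Among the other RGS genes, 0 of 5 tested were called in stromal-like cells against the other classes (median -0.61) or against endothelial-like cells.

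Basement membrane genes, whose products underlie the vessel wall, were higher in both classes than in the rest: 11 of 11 were higher in stromal-like (median 6.70) and 10 of 11 in endothelial-like cells (median 6.81), against 15.8% and 13.6% of all genes (medians 0.13 and 0.12), and 1 of 11 differed between the classes, Lama2, at a log2 fold change of 5.45 in favor of stromal-like cells. Col4a1 was at 5660.2 CPM in Rgs5 against 689 in Dcn cells (2.96, SE 0.74, adjusted p = 0.025) and Col4a2 at 2885 against 324 (2.94, SE 0.86, adjusted p = 0.048), the 2 calls among 8 tested. Beside these counts, 3.8% of all genes were higher in stromal-like than in endothelial-like cells, and 5.32% in Rgs5 than in Dcn cells. Fibroblast matrix genes took the opposite side: 16 of 17 were higher in stromal-like than in endothelial-like cells (median 6.97), against 3.8% of all genes (median 0.00), and within the cluster 10 of 16 were lower and 0 higher in Rgs5 cells (median -3.84), against 7.97% and 5.32% of all genes (median 0.01), such as Mfap5, a microfibril gene, at 19.9 against 2391 (-6.66, SE 0.70, adjusted p = 0.00068). Mfap5 passed the filter only with the Dcn sums, so that its call is a description. Apart from Pdgfra, these matrix genes were not held out of the clustering. Several, such as Col1a1, Lum and Postn, were also among the markers that named the stromal-like class. The count against endothelial-like cells was therefore largely fixed in advance and is no evidence.

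The study's supplement lists human signatures of 2 CAF subsets, CAF-S1 and CAF-S4, of which 226 of 250 and 216 of 240 genes were found by mouse symbol once the 10 genes were left out. In Rgs5 against Dcn cells, 19 of 25 CAF-S4 genes tested were higher and 0 lower (median 2.96), such as Esam, an adhesion gene that is also an endothelial marker, at 238 against 1.22 CPM (5.92, SE 0.96, adjusted p = 0.0034), and Col18a1 at 1084 against 16.5 (4.90, SE 0.78, adjusted p = 0.003). Esam and Col18a1 passed the filter only with the Rgs5 sums, so that their calls and this count are a description. Of 52 CAF-S1 genes tested, 22 were lower and 0 higher (median -1.48), and of all genes 5.32% were higher and 7.97% lower (median 0.01). Between stromal-like and endothelial-like cells the CAF-S4 list had calls on both sides, 9 higher and 5 lower (median 0.37), whereas the CAF-S1 list had 47 higher and 4 lower (median 2.56), beside 3.8% higher and 2.45% lower of all genes (median 0.00). These 2 lists were not held out of the clustering that made the classes, so that the counts between classes are a description. Of the perivascular state markers, Itga1, an integrin subunit listed as immature, was higher in Rgs5 than in Dcn cells (1416 against 70.8 CPM, 3.63, SE 0.92, adjusted p = 0.027), Rhob was not called there (-1.51, adjusted p = 0.12), and Cd9, listed as differentiated, was not called either (298 against 195 CPM, 0.67, adjusted p = 0.47). Itga1 passed the filter only with the Rgs5 sums, so that its call is a description. Cd36, the remaining immature marker, was at means of 300.2 CPM in endothelial-like and 1.76 in stromal-like cells (-5.88, SE 1.05, adjusted p = 0.00041).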

How the data were processed

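Whole tumors were dissociated and profiled with 10x Genomics 3' chemistry (v3.1). The authors deposited, per tumor, a matrix of raw UMI counts by gene and barcode and a matrix of normalized values. The deposited normalized values are the natural log of 1 plus a count corrected for ambient RNA, after doublets and barcodes outside set limits had been removed. The submitters' processing notes name Cell Ranger 3.1.0, Seurat 3.1.5 and Seurat 3, and the mm10 build. Barcodes in the normalized matrix are the kept cells, and levels and tests use their raw counts, so that ambient RNA remains in them. Cnn1 has no row in the normalized matrices of tumors 2 and 3. Human samples were not analysed here.

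Cells were integrated in Seurat 5.3.0 (R 4.3.3) by canonical correlation (2000 variable genes, 30 dimensions, 20 neighbors, resolution 1). The 10 genes, Dcn and the genes of all lists except fibroblast matrix, CAF-S4 and CAF-S1, 97 genes in all, were held out of the variable genes. Genes found only in those excepted lists could form the clusters. A cluster was named where at least 3 markers of a type had a fold of at least 2 over the median of the other clusters and reached 10% of its cells. No further doublets were removed.

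Counts were summed per tumor and class (at least 5 cells) or stromal subset (at least 3 cells) and tested with edgeR 4.0.16 (filterByExpr, TMM, quasi-likelihood, Benjamini-Hochberg over all genes tested, threshold 0.05). Stromal-like and endothelial-like sums were each compared with the mean of the remaining classes, weighted alike, and with each other. The SE is the log2 fold change divided by the root of F. The replicate is the tumor (n = 3). A gene near 0 in 1 group of a comparison could pass the filter through another group alone, and its call is then a description. The fits were also run on simulated counts in which all classes shared a single profile, apart from changes set in genes that were not sparse. This setting differs from genes near 0 in most classes, so that it is no check of the calls given here. Named genes are the 10, and up to 4 per list with the largest fold past the threshold. The members and lists were chosen with earlier results of these data known. Jag1 and Rhob were each named in 1 comparison outside that order, after their values were seen.

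Classes of 1 tumor come from 1 animal and are therefore paired by origin. Over 5840 genes, deviations of stromal-like and endothelial-like sums from their class means correlated at 0.0756 to 0.317 within a tumor (3 pairs) and at -0.276 to -0.0297 between tumors (6 pairs). Alternatives were DESeq2 1.42.0, no filter on low counts, the tumor as a block, leaving out each tumor, a resolution of 2, the corrected counts, sums of at least 10 cells and another split of double-positive cells. Exact binomial intervals are at 95%, and the limit at a count of 0 is 3 counts.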

Additional observations from a re-analysis of the deposited data

Results flagged for a closer look

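Barcodes that the authors left out, which enter none of the comparisons, held 460, 130 and 251 Rgs5 UMIs in tumors 1, 2 and 3, above the limit of 3 counts that a count of 0 allows (there is no control sample). These were 20.3%, 48.0% and 32.6% of all Rgs5 UMIs of the tumors. Over all 10 genes, 3868, 726 and 1740 UMIs lay in left-out barcodes, 27.0%, 53.0% and 48.7% of the total. At least 5 Rgs5 UMIs were found in 14, 2 and 7 left-out barcodes, against 21, 4 and 12 kept cells. In these left-out barcodes mitochondrial genes gave a median of 30.3%, 29.5% and 20.7% of UMIs, against 9.66%, 7.88% and 9.97% in the kept cells with as many Rgs5 UMIs. Of these 14, 2 and 7 left-out barcodes, 12, 2 and 4 had 20% or more mitochondrial UMIs.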

How the results depend on the processing

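No member was called lower in any alternative, and 8 fold changes that were not called changed sign. In endothelial-like against the other classes, the log2 fold change of Actg2 (0.88) became -0.29 with DESeq2, -1.38 with the corrected counts and -2.30 without tumor 2 (range -2.30 to 3.68 without 1 tumor), that of Myh11 (2.98) became -1.02 with the corrected counts, and that of Pdgfrb (2.03) became -1.35 without tumor 1 (range -1.35 to 2.31). Mcam in stromal-like against endothelial-like cells (0.03) became -0.027 with no filter, -0.097 without tumor 2 and -0.093 without tumor 3 (range -0.097 to 0.35 without 1 tumor). The count of members higher in stromal-like than in the other classes was 9 and ranged from 9 to 10 without 1 tumor. That in endothelial-like cells was 5, was 3 with DESeq2 and ranged from 3 to 5 without 1 tumor (3 without tumor 1 or 2). Between stromal-like and endothelial-like cells it was 8, was 5 with DESeq2 and ranged from 5 to 7 without 1 tumor (5 without tumor 3). In Rgs5 against Dcn cells it was 8, Myh11 and Actg2 included, was 7 with the corrected counts (Actg2 under the filter), and ranged from 4 to 9 without 1 tumor (4 without tumor 1). The causes were not tested. Of the values for single members and shares, 310 kept their direction and side of the threshold or their range, 20 were no longer called, and 13 shares moved when cells were not thinned. The mesothelial-like class was left out of the other classes as an alternative chosen after seeing the data, with 9 and 5 members higher as before.

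When the tumor was added as a replicate block, the counts of members higher were 9, 5, 8 and 8, and the block changed no member's call. Over all genes, calls in stromal-like against endothelial-like cells went from 222 higher and 143 lower to 351 and 261 with the block, and in Rgs5 against Dcn cells from 58 and 87 to 114 and 140. Calls lower than the other classes went from 34 to 143 in stromal-like and from 24 to 106 in endothelial-like cells.

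Over all genes, counts of calls also moved by more than 1.5 times between stromal-like and endothelial-like cells with DESeq2 (109 higher and 78 lower), and with no filter in all 4 comparisons in the order above (2515 and 110, 1753 and 89, 532 and 285, 94 and 124). They were lower with the corrected counts, on 3414 or 381 genes tested (537 and 14, 445 and 7, 96 and 68, 33 and 53). Giving double-positive cells to the gene with more UMIs left 48 and 50 calls in Rgs5 against Dcn cells. Calls lower in stromal-like cells than in the other classes were 12 with sums of at least 10 cells and 10 without tumor 2 or 3, and those in endothelial-like cells 11 without tumor 2 and 6 without tumor 3. Between the 2 classes there were 127 and 121 calls without tumor 1, 104 and 91 without tumor 2 and 148 and 72 without tumor 3. Rgs5 against Dcn cells gave 12 and 40 without tumor 1 and 153 and 170 without tumor 3. The lone Rgs5 sum left without tumor 1 or 3 is assumed to vary like the Dcn sums. Sums of at least 10 cells moved the median log2 fold change of all genes in stromal-like against the other classes from 0.13 to 0.30. Depth limits Cnn1 most, with 55 UMIs in stromal-like cells, and sums of 3 Dcn cells in tumors 2 and 3.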
